A study of Homo sapiens with 4 samples.

Results

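The genes described here encode nucleolar factors of ribosome assembly, and the question is where their RNAs appeared among peaks recovered with probes against ZNF609. The 30 genes are members of a list drawn up with earlier results of these data known. They were chosen by measured values, in that most had a peak in the even or the odd list, so the number of members with such a peak is a description and supports nothing. Members were found in the peak lists by overlap of a peak with the annotated gene span on GRCh38, with strand ignored. All 30 symbols matched 1 protein-coding gene of the RefSeq table, out of 20050 protein-coding genes in all. At least 1 peak in any list was found in 19 of the 30 members, and 11 members had none. Of all protein-coding genes 4.22% had a peak in any list. Nothing is read from that contrast, here or for the parts of the group below.

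The material was RD, an established line from an embryonal rhabdomyosarcoma, a tumour of the skeletal muscle lineage. RNA was captured from RD cells with 3 sets of biotinylated antisense probes. The even and the odd set are separate sets against exon 2 of ZNF609, the exon that makes up the circular RNA circ-ZNF609, and the LacZ set targets a bacterial mRNA that human cells lack. The labels name no genotype or drug treatment for the groups, and all come from the same line. Each set was represented by 1 library, so no value below has a replicate error and no difference between probe sets could be tested. The total lysate was not analysed here. Capture by the probes and abundance of an RNA in the cells therefore cannot be told apart. Of 8 muscle lineage markers, DES, TNNT1 and TNNT2 had peaks, while MYOD1, MYOG, MYF5, MYH3 and PAX7 had 0; a peak is not an expression level.

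Ribosomes are built in the nucleolus. RNA polymerase I transcribes the long precursor of the ribosomal RNAs there, small nucleolar ribonucleoproteins (snoRNPs) guide its chemical modification, and large sets of assembly factors cut and fold it into the small and the large subunit. The proteins are well known for their place in proliferating and tumour cells. What was measured here is the recovery of the RNAs that encode them, not the proteins.

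The even list held 502 peaks, the odd list 542 and the LacZ list 722, with 482418, 279415 and 219401 reads in peaks. A peak consists of 1 or more adjacent bins of 170 bases, and its signal is the number of reads per bin. Signals are not scaled to library size, so each peak is described by its rank within its own list, where rank 1 has the most reads per bin. Even peaks lay in 13 members, odd peaks in 12 and LacZ peaks in 9. Over all protein-coding genes, 1.54% had an even peak, 1.64% an odd peak and 2.22% a LacZ peak. Because the members were picked for even or odd peaks, nothing is read from that contrast. Of the even list, 28 peaks lay in members (5.58%, exact 95% interval 3.74 to 7.96). The odd list had 22 (4.06%, with bounds of 2.56 and 6.08) and the LacZ list 13 (1.80%, with bounds of 0.962 and 3.06). These intervals, like those below, cover counting error alone. They treat peaks as independent, although NCL alone held 6 of the even peaks. Even and odd peaks chose the members, so nothing is read from the difference between these shares either.

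**Figure D1:**
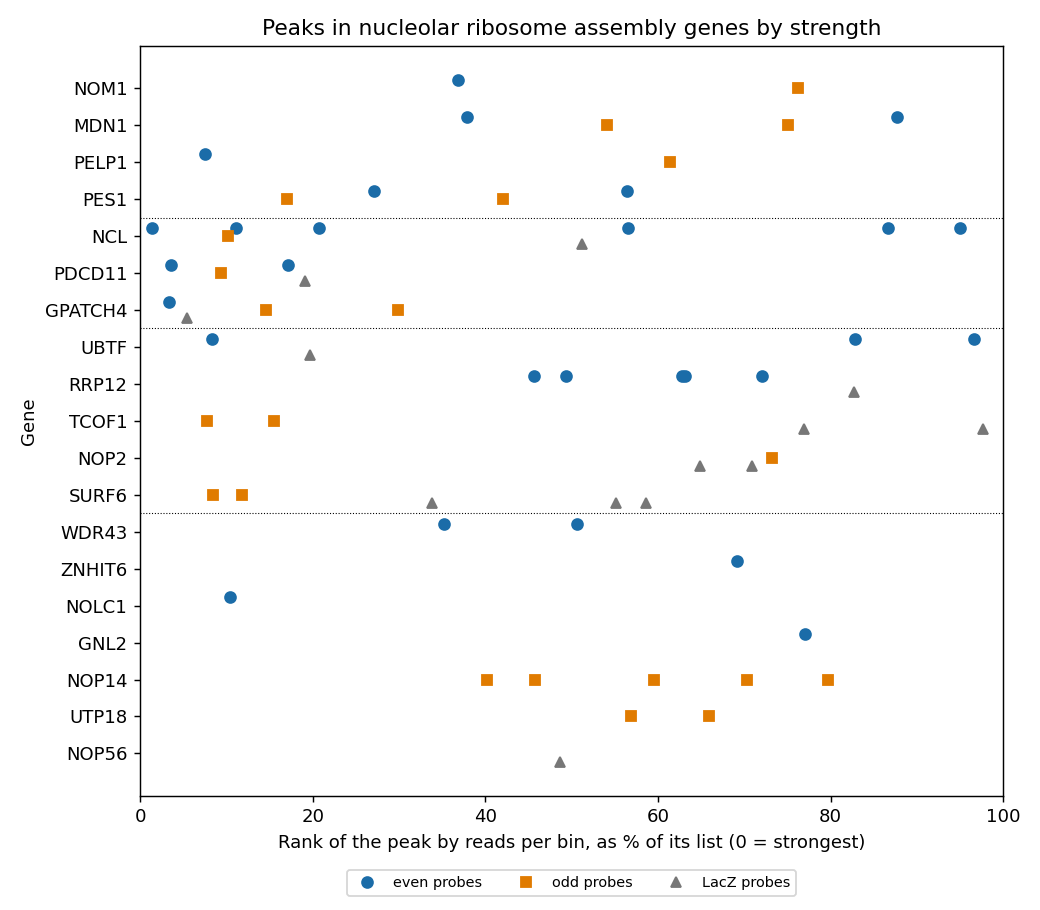
Each point is 1 peak in a member gene, placed by its rank as a percentage of its list (horizontal axis, 0 is strongest), with circles for even, squares for odd and triangles for LacZ probes. Dotted lines separate, from the top, the 4 genes found with even and odd probes alone, the 3 found with all sets, the 5 found with LacZ and 1 ZNF609 set, and the 7 found with 1 set. The strongest even peaks lie in NCL, GPATCH4 and PDCD11, and GPATCH4 also holds the strongest LacZ peak of the group.

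Among the genes of RNA polymerase I transcription and ribosomal DNA, NCL gave the strongest signal of any member. NCL encodes nucleolin, an abundant RNA-binding nucleolar protein, and its gene (gene ID 4691) spans chr2:231453531-231464484 on GRCh38. The even probes gave 6 NCL peaks over a stretch of 5270 bases, from rank 477 to rank 7 of 502. The top peak, at chr2:231460101-231460440, reached 3235.5 reads per bin, with a p-value of 2.49e-09. The odd probes gave 1 NCL peak on the same bases, with 550.5 reads per bin at rank 55 of 542. The LacZ probes gave 1 peak in the upper bin of the same pair, with 112 reads per bin at rank 370 of 722. NCL was thus recovered at this place with every probe set, and the other 5 even peaks had no counterpart in the odd or LacZ list.

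The place shared by all sets in NCL covers a small nucleolar RNA gene. SNORD82, a box C/D snoRNA gene of 75 bases at chr2:231460368-231460442, had 73 of its bases under the peak in each of the 3 lists. It was the only annotated snoRNA gene under a peak of a member, out of 19 snoRNA genes that lie in 7 members. Over each whole list 1 peak overlapped an annotated snoRNA gene, and that was the NCL peak. The bins are wider than SNORD82, so reads of the snoRNA and of NCL RNA could not be told apart. In the other members that host snoRNAs and had a peak, WDR43 and NOP56, the peaks lay outside these genes. The nearest distances were 14271 bases to SNORD53B in WDR43 and 771 bases to SNORD57 in NOP56.

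UBTF encodes the upstream binding factor that loads RNA polymerase I onto ribosomal DNA. Its gene (gene ID 7343) spans chr17:44205040-44221304. The strongest even peak, at chr17:44207141-44207820, had 939 reads per bin at rank 42 of 502, and 2 further even peaks ranked 416 and 485. The LacZ peak, at chr17:44207311-44207650, lay wholly within the strongest even peak and had 202 reads per bin at rank 142 of 722. The deposited p-value of that even peak was 0.00202, at rank 247 of 502 by p-value. That of the LacZ peak was lower, 0.000124, at rank 151 of 722. Limited to p-values under 0.001, UBTF kept the LacZ peak alone. UBTF had 0 odd peaks. The even peak of UBTF also reached into a microRNA gene, MIR6782, at chr17:44207771-44207839 on the minus strand. The RefSeq hairpin is shown because it is a stretch of known sequence that a member's peak reached. The 50 of 69 bases that lie under the even peak are in capitals. In the mature arm that follows, capitals mark the seed, bases 2 to 8, and not the peak. Of the 25 bases of that arm 11 lay under the even peak, and the seed lay outside it.

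MIR6782 hairpin: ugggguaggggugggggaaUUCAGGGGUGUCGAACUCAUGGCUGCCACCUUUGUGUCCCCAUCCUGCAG

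hsa-miR-6782-5p: uAGGGGUGggggaauucaggggugu

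The hairpin lies in UBTF, and the LacZ peak stopped short of it. Of all even peaks 1 overlapped a microRNA gene, against 0 odd and 4 LacZ peaks. Peaks do not show whether a mature microRNA was captured. All UBTF peaks also lay in ATXN7L3-AS1, an annotated long noncoding RNA gene, and the library kits do not keep strand.

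TCOF1 encodes treacle, a nucleolar scaffold that links RNA polymerase I with the processing machinery. In TCOF1 (gene ID 6949, chr5:150357697-150400293) the odd probes gave peaks at chr5:150396621-150396960 and chr5:150398321-150398490. These had 615.5 and 446 reads per bin at ranks 42 and 84 of 542. By reads per bin the first was the strongest odd peak of any member. Their deposited p-values were 0.00551 and 0.00121, which put them at ranks 379 and 157 of 542 by p-value. The 2 LacZ peaks in TCOF1 were among the weakest of their list, with 66.5 and 42 reads per bin at ranks 555 and 705 of 722. They lay at least 4420 bases from the odd peaks, so the lists shared the gene and not the place. There were 0 even peaks in TCOF1.

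Of the 9 members of the small subunit processome, the particle that forms on the nascent ribosomal RNA, and of the later small subunit precursor, 6 had a peak. PDCD11 was the strongest. PDCD11 encodes the human counterpart of yeast Rrp5, which acts in both subunits, and its gene (gene ID 22984) spans chr10:103396626-103446294. An even peak at chr10:103440241-103440920 had 1608 reads per bin at rank 18 of 502. The odd peak covered 510 of those bases, with 567 reads per bin at rank 51 of 542. The LacZ peak also covered 510 of them, with 208 reads per bin at rank 138 of 722. The odd and LacZ peaks shared 340 bases. A further even peak at chr10:103441771-103442280, with 642 reads per bin at rank 86, had no odd or LacZ counterpart.

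NOM1, a nucleolar partner of the helicase eIF4A, was the small subunit member found with even and odd probes and not with LacZ probes. The NOM1 gene (gene ID 64434) spans chr7:156949712-156973176. The even peak, at chr7:156950291-156950630, had 369.5 reads per bin at rank 185 of 502. The odd peak filled the upper of its 2 bins, with 154 reads per bin at rank 413 of 542. The middle of the even peak lay 748 bases from the lower end of the gene span.

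RRP12 and WDR43 were recovered with even probes and not with odd probes. RRP12, a factor of small subunit export, had 5 even peaks spread over 7650 bases, with 197 to 315 reads per bin and ranks from 362 to 229 of 502. The single RRP12 peak in the LacZ list, with 57.5 reads per bin at rank 597 of 722, began 170 bases beyond the last even peak and did not overlap it. WDR43, a subunit of the complex that first binds the nascent ribosomal RNA, had 2 even peaks at ranks 177 and 254 of 502 and 0 LacZ peaks. These had 382 and 291 reads per bin.

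NOP14 and UTP18, both subunits of the small subunit processome, were recovered with odd probes alone. NOP14 had the most odd peaks of any member, 5 over a stretch of 4590 bases. Their signals ran from 144 to 258 reads per bin and their ranks from 432 to 218 of 542, so NOP14 was covered broadly and not strongly. The lower 2 of the 5 also lay in NOP14-AS1. UTP18 had peaks of 198 and 176 reads per bin at ranks 308 and 357, and the first also lay in the neighbouring gene MBTD1. HEATR1, UTP20 and BMS1, which encode further processome proteins, had 0 peaks in the 3 lists.

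Of the 6 members that encode snoRNP proteins or their assembly factors, 3 had a peak, and none of these was in the odd list. NOLC1 and ZNHIT6 had an even peak, NOP56 a LacZ peak, and FBL, NOP58 and DKC1 had 0 peaks. NOLC1, a chaperone of snoRNPs that is rich in serine, had an even peak at chr10:102159121-102159460 with 874.5 reads per bin at rank 52 of 502. ZNHIT6, which takes part in building box C/D snoRNPs, had an even peak at rank 347 with 209.5 reads per bin. Among the core proteins of the finished particles, NOP56 was seen in the control list alone, with 116 reads per bin at rank 351 of 722. Fibrillarin (FBL) and dyskerin (DKC1), the modifying enzymes, were in no list.

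Large subunit assembly held 3 of the 4 members found with even and odd probes and not with LacZ probes. PES1, PELP1 and MDN1 share that pattern. PES1 encodes pescadillo, which with BOP1 and WDR12 forms a complex needed for large subunit maturation, and its gene (gene ID 23481) spans chr22:30576625-30607013. The even peaks of PES1, at chr22:30579091-30579430 and chr22:30579601-30579940, had 480.5 and 260.5 reads per bin at ranks 136 and 283 of 502. The odd peaks, at chr22:30578921-30579430 and chr22:30579601-30579940, had 430 and 253 reads per bin at ranks 92 and 228 of 542. PES1 was the one gene of the 4 whose strongest odd peak stood higher in its list than its strongest even peak. Its partners BOP1 and WDR12 had 0 peaks.

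PELP1, a scaffold of a complex that acts on late large subunit precursors, had the strongest peak of the 4 genes. The gene (gene ID 27043) spans chr17:4669774-4704137. Even and odd peaks of PELP1 lay on identical bases, chr17:4672111-4672450. The even peak had 957 reads per bin, a p-value of 1.23e-07 and rank 38 of 502, whereas the odd peak had 188 reads per bin, a p-value of 0.00417 and rank 333 of 542. The same place was thus near the top of the even list and in the lower part of the odd list.

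MDN1 encodes midasin, a very large motor ATPase that strips assembly factors from large subunit precursors. The gene (gene ID 23195) has the longest span among the members, 177297 bases at chr6:89642498-89819794. Its 2 peaks were 1 bin wide and occupied the same bins in the even and the odd list. At chr6:89661401-89661570 the even peak had 363 reads per bin at rank 190 and the odd peak 204 at rank 293. At chr6:89658851-89659020 the values were 151 at rank 440 and 156 at rank 407. Both places also lie in MDN1-AS1, so without strand the RNAs could not be told apart.

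The other large subunit members were each seen with 1 ZNF609 probe set or with none. SURF6, a basic nucleolar protein, had odd peaks at chr9:133334401-133334740 and chr9:133336101-133336270 with 501.5 and 599 reads per bin, at ranks 64 and 46 of 542. Their deposited p-values, 0.00867 and 0.00702, stood near the 0.01 limit, at ranks 507 and 439 of 542 by p-value. The 3 LacZ peaks of SURF6, with 96 to 151 reads per bin and a best rank of 244 of 722, lay at least 510 bases away from the odd peaks. NOP2, a methyltransferase of the large ribosomal RNA, had an odd peak of 160 reads per bin at rank 397 of 542. A LacZ peak of 83 reads per bin at rank 468 of 722 covered exactly the same bases of NOP2, chr12:6563701-6564040. GNL2, a nucleolar GTPase, had 1 even peak of 178 reads per bin at rank 387, which also lay in DNALI1. RRP1B, NOC2L and NPM1, the gene of nucleophosmin, had 0 peaks.

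The stronger SURF6 odd peak crossed the annotated start of the gene, which lies on the minus strand and spans chr9:133328776-133336188 (gene ID 6838). Of the 170 bases of that peak, 88 lay inside the span and 82 before the start. The RefSeq promoter on GRCh38.p14, the 250 bases before the start at chr9:133336189-133336438, is shown because it is the only promoter window of a member that a peak reached. The 82 bases under the odd peak are in capitals.

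SURF6 promoter: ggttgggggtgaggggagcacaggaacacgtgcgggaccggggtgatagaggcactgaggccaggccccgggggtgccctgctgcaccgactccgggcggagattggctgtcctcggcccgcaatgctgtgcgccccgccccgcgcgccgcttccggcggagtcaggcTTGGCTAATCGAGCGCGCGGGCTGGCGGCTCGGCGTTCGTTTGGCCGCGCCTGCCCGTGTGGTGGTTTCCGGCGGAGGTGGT

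The peak is a whole bin, so it does not show that reads covered each of these bases.

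GPATCH4, a nucleolar partner of a DEAH box helicase, was recovered at the same place with every probe set. Its gene (gene ID 54865) is short, 7179 bases at chr1:156594301-156601479. Even and LacZ peaks of GPATCH4 lay on the same 850 bases, chr1:156594991-156595840, and 2 odd peaks covered 680 of these. The even peak had 1653 reads per bin at rank 17 of 502, the odd peaks 461 and 313 at ranks 79 and 162 of 542, and the LacZ peak 413 at rank 39 of 722. GPATCH4 thus held the strongest LacZ peak of any member, and the LacZ peak stood higher in its list than the odd peaks in theirs.

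**Figure D2:**
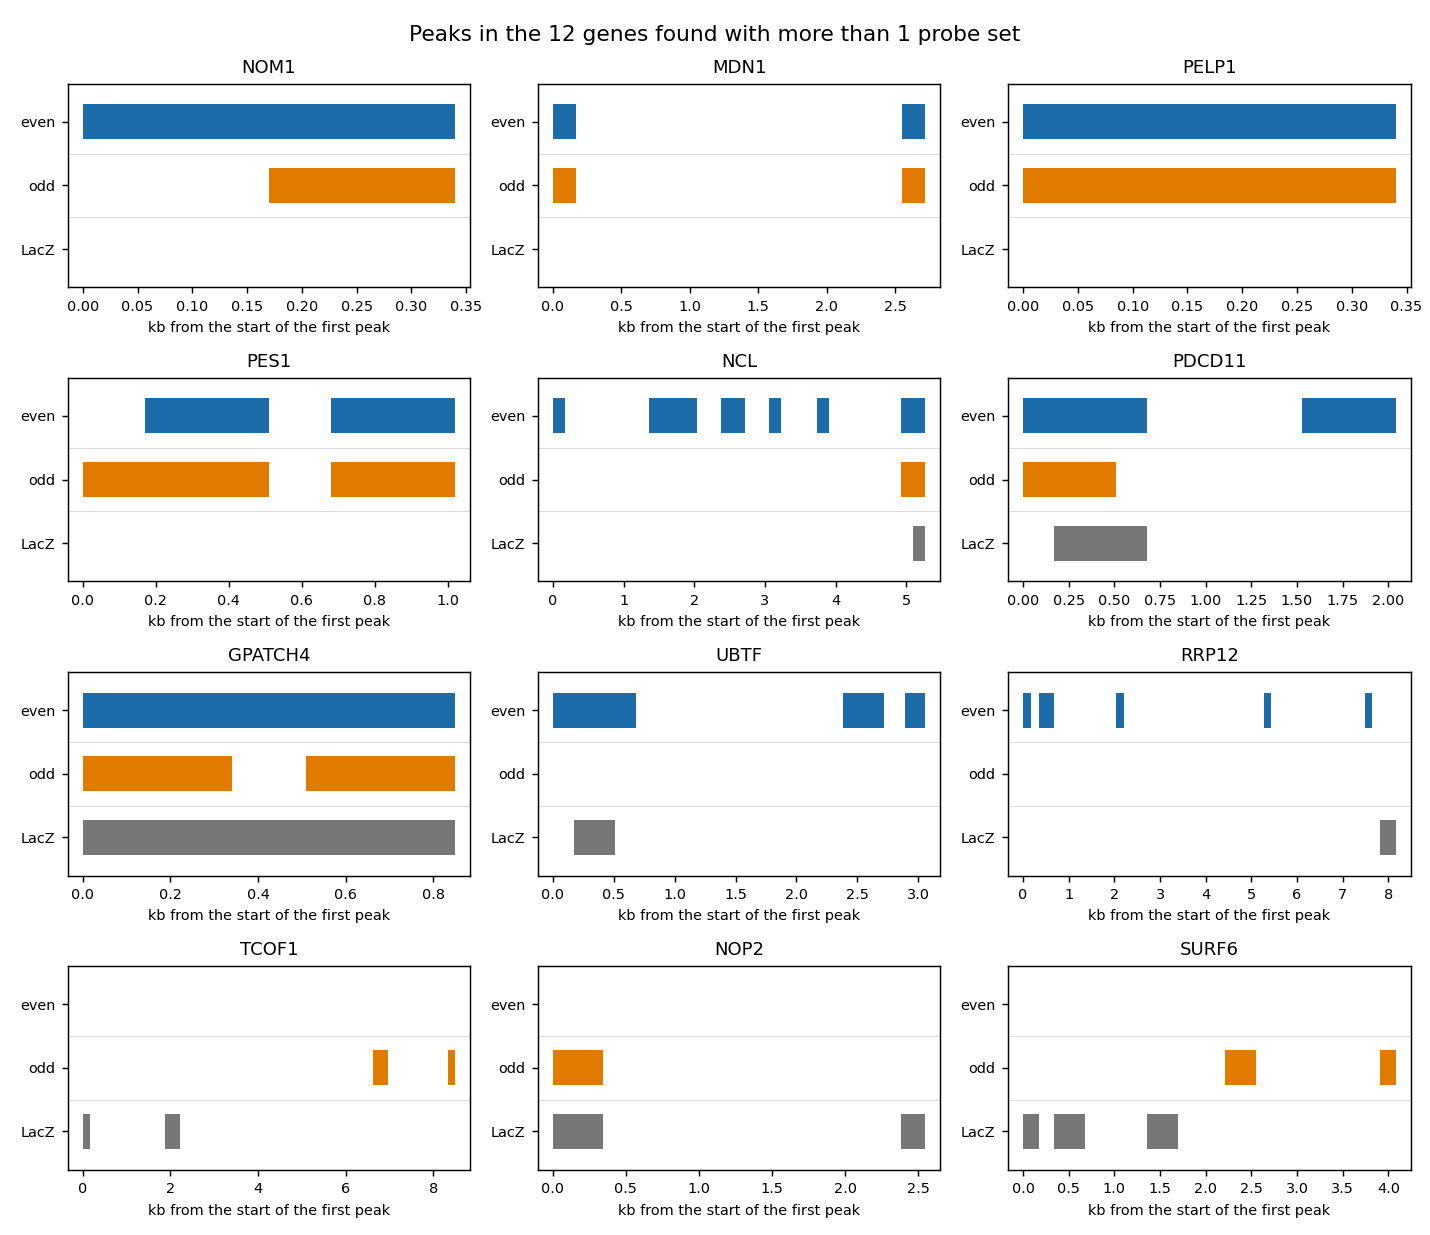
Peaks in the 12 members found with more than 1 probe set, drawn as bars by list (even, odd and LacZ from top to bottom of each panel) against distance in kb from the first peak of that gene, counted from the lower coordinate. Even and odd bars overlap in the first 7 genes, and LacZ bars stand apart from the other list's bars in RRP12, TCOF1 and SURF6.

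Counted by combination of lists, 4 members were found with the even and the odd set and lacked a LacZ peak (NOM1, MDN1, PELP1 and PES1), and 3 had peaks in every list (NCL, PDCD11 and GPATCH4). A further 2 had even and LacZ peaks (UBTF and RRP12) and 3 odd and LacZ peaks (TCOF1, NOP2 and SURF6). In the same order, these classes held 0.209%, 0.224%, 0.219% and 0.294% of all protein-coding genes. The pairs of LacZ with 1 ZNF609 set together held 5 members, against the 4 found with even and odd probes. Peaks in 1 list alone were seen in 4 members for even, 2 for odd and 1 for LacZ, and 0.888%, 0.908% and 1.48% of all protein-coding genes had that pattern. Even and odd peaks chose the members, so nothing is read from these shares.

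The call of a peak in the 4 members without a LacZ peak depended on the p-value limit. In the odd list the p-values of their peaks ran from 0.00106 to 0.00426. With peaks limited to a deposited p-value under 0.001, MDN1 and PELP1 kept an even peak, NOM1 and PES1 had no peak, and 0 of the 4 had an odd peak. NOP14 was the 1 member that kept an odd peak at that limit. With each list cut to its 502 peaks of lowest p-value, NCL and RRP12 lost their LacZ peak, so NCL joined the 4 genes.

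Of the 18 members with an even or odd peak, 8 also had a LacZ peak. Among all 550 protein-coding genes with an even or odd peak the share was 26.9%. LacZ peaks are among the values behind the choice of the group, so these counts are a description. When LacZ peaks under 105 reads per bin, the signal of the weakest odd peak, were left out, RRP12, TCOF1 and NOP2 no longer had one. Signals are not scaled between lists, and this limit kept 401 of 722 LacZ peaks, so it does not show that LacZ capture was absent. In NOP2 the LacZ peak left out had the lower deposited p-value, 0.000816 against 0.00466 for the odd peak on the same bases. In RRP12 and TCOF1 the lowest p-value was that of a ZNF609 set. Of the 13 members with an even peak, 7 also had an odd peak, against 28.2% of all genes with an even peak. In all 7 the even and odd peaks overlapped, against 74.7% of all genes with both. Nothing is read from these shares, since they rest on the values that chose the members.

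**Figure D3:**
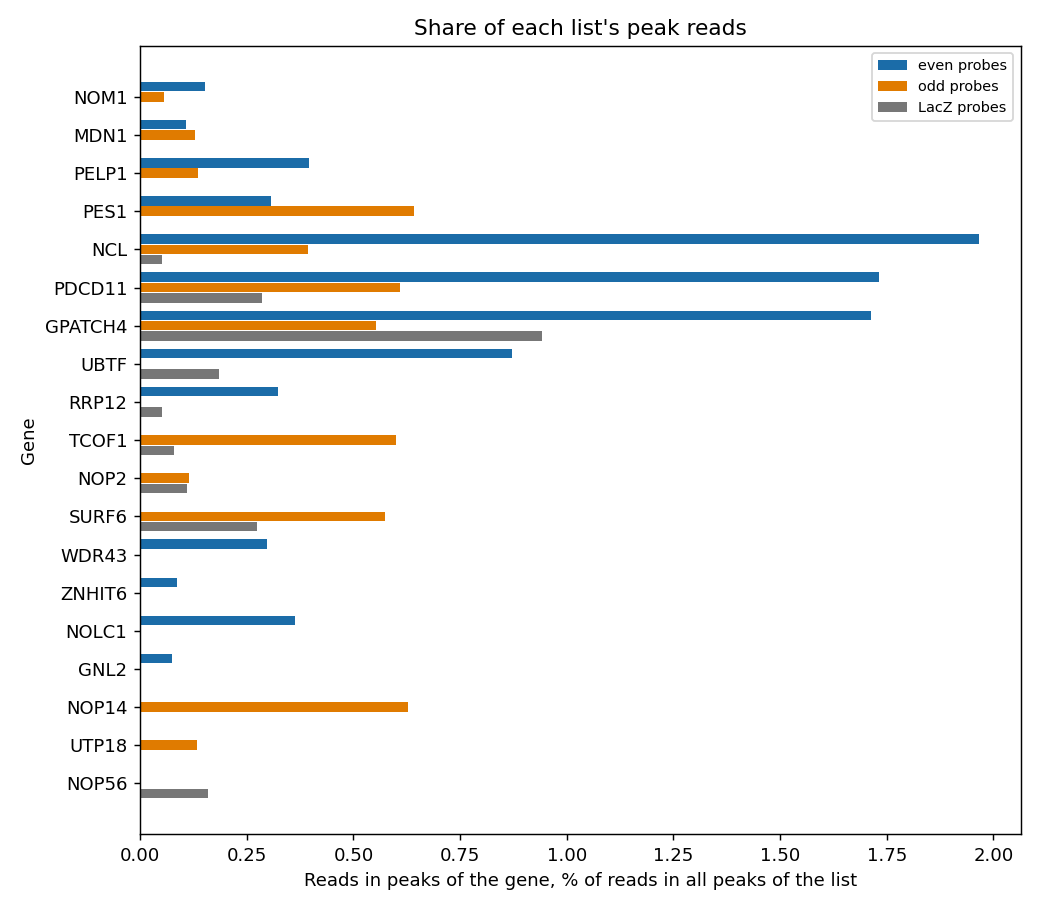
Reads in the peaks of each member as a percentage of the reads in all peaks of the same list (horizontal axis), for even, odd and LacZ probes. NCL, PDCD11 and GPATCH4 take the largest even shares, 1.97%, 1.73% and 1.71%, and GPATCH4 the largest LacZ share, 0.942%.

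As shares of the reads in peaks, the members took 8.39% with even, 4.57% with odd and 2.14% with LacZ probes. Even and odd peaks chose the members, so nothing is read from the difference between the lists. The even share was concentrated in NCL (1.97%), PDCD11 (1.73%), GPATCH4 (1.71%) and UBTF (0.872%), each of which also had a LacZ peak. In the odd list it was spread more evenly, led by PES1 (0.643%), NOP14 (0.628%), PDCD11 (0.609%) and TCOF1 (0.600%). In the LacZ list GPATCH4 alone took 0.942%. The 4 genes without a LacZ peak took 0.397% (PELP1), 0.307% (PES1), 0.153% (NOM1) and 0.107% (MDN1) of even peak reads. As a point of reference by the same rank, CKAP5, the gene in the title of the series, had its best even peak at rank 163 of 502 and its best odd peak at rank 204 of 542. Deposited p-values of these CKAP5 peaks were 7.27e-05 and 0.000777, whereas the 4 genes had no odd peak under 0.001. ZNF609, the target of the probes, had its best even peak at rank 77 and its best odd peak at rank 109. The deposited p-values of the ZNF609 peaks were 3.6e-05 and 1.67e-05.

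By median rank, member peaks stood near the middle of their lists. The median rank was 47.5% of the way down the even list, 43.9% down the odd list and 55.1% down the LacZ list. The strongest 10% of each list held 5 of 28 even (17.9%), 3 of 22 odd (13.6%) and 1 of 13 LacZ member peaks (7.69%). About 10% of a whole list stands there by construction. Nothing is read from the difference, since these peaks chose the members.

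Position along the gene was not used to choose the members. It could be oriented in the members for which the promoter table gives a strand, where it was measured from the annotated start to the middle of the peak. In the even list 13 of 21 such peaks (61.9%) lay beyond 80% of the span. Over all even peaks in oriented protein-coding genes the share was 33.8%. The odd list had 42.1% of 19 member peaks there, against 36.7% of all odd peaks, and the LacZ list 40% of 10, against 36.7% of all LacZ peaks. Of the 10 oriented members with an even peak, 9 had at least 1 beyond 80%. The exception was ZNHIT6, whose peak lay 0.936% into the span. In NCL and UBTF the other even peaks lay before 80%, and the strongest NCL peak lay at 38.5%. The count by gene was not made over all protein-coding genes. Peaks of 1 gene share their RNA, and exon positions were not used here, so these shares are a description. By gene, all peaks of PES1, PELP1, MDN1, PDCD11, WDR43, GPATCH4, GNL2 and NOP56 lay beyond 80% of the span. The UTP18 and ZNHIT6 peaks lay near the start, as did the SURF6 odd peak with the most reads per bin.

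Members with a peak were not the longer genes of the group. The median span was 29122 bases in the 19 members with a peak and 36520 in the 11 without. Over all protein-coding genes it was 24093 bases, and in the 847 with a peak 43684. At the edge of the rule, the SURF6 peak with 88 bases inside the span was the smallest overlap counted. The GNL2 peak, with 295 of 340 bases inside, was the other peak that reached beyond a span. On the other side, the nearest peak to a member without one was 39441 bases from DKC1. SURF6 also had an odd peak wholly inside its span.

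Of the rest of the pathway, 144 genes in 6 lists of ribosome assembly were counted in the same way, and 16 (11.1%, exact 95% interval 6.49 to 17.4) had a peak in any list, against 4.22% of all protein-coding genes. The lists were drawn up with earlier results known, which had named KNOP1 and DDX27. By probe set, 7 had an even, 7 an odd and 6 a LacZ peak, or 4.86%, 4.86% and 4.17%. The shares over all protein-coding genes were 1.54%, 1.64% and 2.22%, and the LacZ list is the longest. Because earlier results were known when the lists were drawn up, these shares are a description. Nothing is read from their contrast with all protein-coding genes. Nucleolar DEAD and DEAH box helicases held 6 of the 16, DDX18, DDX21, DDX24, DDX27, DDX49 and DDX54, out of 15. Large subunit factors held 7 of 46: RSL1D1 and LYAR in the even list, PPAN in the odd list, RRP1, RRP8 and FTSJ3 in the LacZ list, and KNOP1 in even and odd. Of 43 further small subunit factors AATF alone had a peak, in the odd list. Of 11 further snoRNP genes PIH1D1 had an even and RUVBL1 an odd peak. The 15 genes of RNA polymerase I and its factors and the 14 of the RNA exosome had 0 peaks.

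KNOP1 and DDX27 were the genes of these lists found with both ZNF609 sets and without a LacZ peak. DDX27, a helicase of large subunit assembly, had 5 even peaks with a best rank of 13 of 502 and 2 odd peaks with a best rank of 168 of 542. The corresponding signals were 1779 and 303 reads per bin. KNOP1, a lysine-rich nucleolar protein, had 3 even peaks with a best rank of 132 and 1 odd peak at rank 234, with 484 and 247 reads per bin. The best even peak of KNOP1 lay at another place than its odd peak, and at the place found with both sets the even signal was 324 reads per bin at rank 223 of 502.

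**Figure D4:**
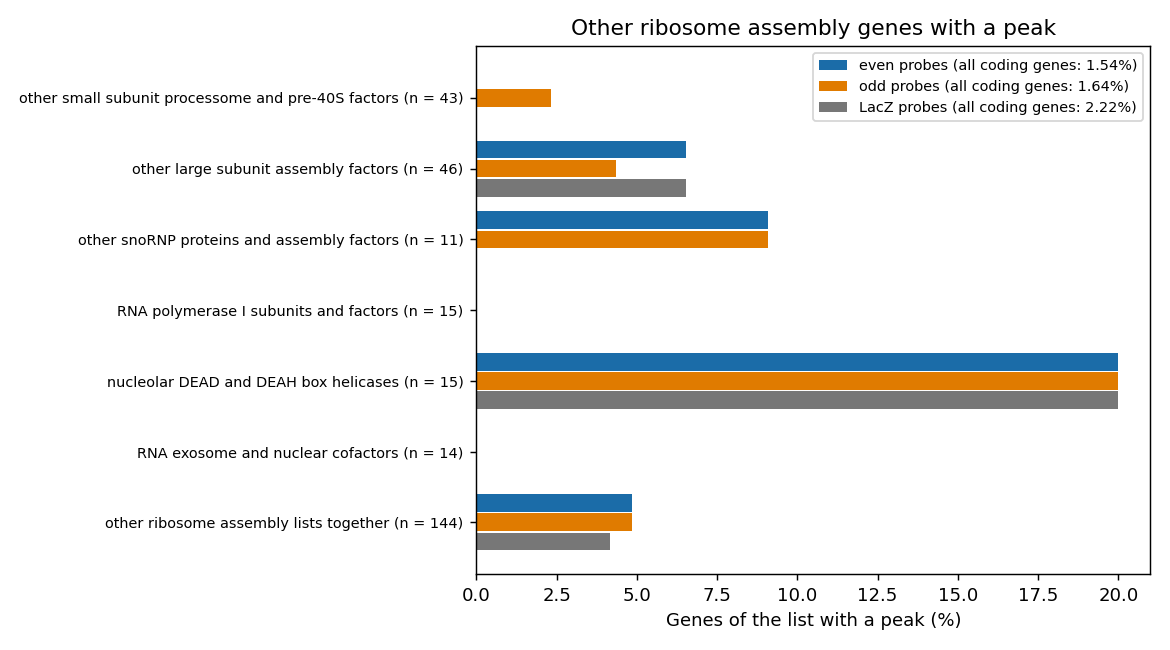
Percentage of genes with at least 1 peak (horizontal axis) in each of the 6 other ribosome assembly lists and in all 144 genes together, for even, odd and LacZ probes. The legend gives the share of all protein-coding genes, and the 3 bars of the combined list stand at 4.86%, 4.86% and 4.17%.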

How the data were processed

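Of 4 samples, the 3 pull-down libraries from RD cells were used, grouped by the probe set in their titles. The tools named, per the submitters' processing notes, are STAR 2.5.2b, Trimmomatic, SAMtools, Picard, bedtools and bcl2fastq 2.0.2, with the build GRCh38. Their roles, order and settings are not stated. The deposited lists are named for the peak caller Piranha, with 1 list per library. The deposited signal is reads per bin of 170 bases, averaged over the bins of a peak: in 100% of peaks it gives a whole number of reads (tolerance 0.02). The deposited p-value is below 0.01 in each peak, and the deposited column 8 is an unnamed score. Total depth is not known from peaks.

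Gene spans came from RefSeq on GRCh38.p14, with overlap of at least 1 base. Strand was known for members with an entry in the promoter table, 23 of 30. Overlaps were computed with Python 3.11.15, pandas 2.3.3 and numpy 2.4.6, checked on simulated peaks, and exact Clopper-Pearson intervals with scipy 1.17.1. With 1 library per probe set no test between sets was made. The members and lists were chosen with earlier results of these data known. Every member with a peak is named, and of the other lists every gene with a peak. Alternatives were a stricter p-value, lists of equal length, other overlap rules and other ranks. Protein composition had been planned and was not run. Sequences are from RefSeq on GRCh38.p14.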

Additional observations from a re-analysis of the deposited data

How the results depend on the processing

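With 1 library per probe set there was no replicate to leave out. No paired analysis was possible because each probe set had 1 library. With a p-value under 0.001, members with a peak fell to 7 for even, 1 for odd and 5 for LacZ, with 10, 2 and 7 peaks. At that limit 0 members and 0 regions were shared by even and odd alone, 0 members and 0 regions by all 3 lists, and 2 members by LacZ and 1 ZNF609 set. Those 2 were PDCD11 and GPATCH4, which lost their odd peaks. UBTF, NOP2 and SURF6 kept LacZ peaks alone, and RRP12 and TCOF1 had no peak. LacZ peaks were also limited to at least 105 reads per bin, a limit not scaled to library size. Members then held 7 LacZ peaks, 2 members had LacZ and 1 ZNF609 set, and 1 region was of that kind. Counted per peak in place of merged regions, 12 peaks were shared by even and odd alone, 10 by all 3 and 4 by LacZ and 1 ZNF609 set, against 6, 3 and 2 regions; a region holds several peaks by construction. Ranked by p-value, the strongest 10% held 2 even, 0 odd and 0 LacZ member peaks, against 5, 3 and 1 by reads per bin; the cause was not tested. In lists cut to their 502 strongest peaks by p-value, without peaks over bins with the fixed score, with each peak given to 1 gene, with a reciprocal overlap of 50%, with a distance of 200 bases and ranked by reads in the whole peak, each count stayed within 1.5 times. NOM1, MDN1, PELP1 and PES1 kept their class in the first 3 of these settings. Protein composition of the members was not run, since no protein sequences were used here.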

Other observations

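Column 8 of the lists, the unnamed score, was not used to choose the members. It holds a fixed value of 0.01 in some bins. Such bins lay under 0 of the 28 even, 0 of the 22 odd and 0 of the 13 LacZ member peaks. In the whole lists they lay under 11.4% of even, 4.06% of odd and 23.4% of LacZ peaks. The upper exact 95% limits for 0 peaks are 12.3%, 15.4% and 24.7%, each above the share of its own list. For the 63 member peaks of the 3 lists together the limit is 5.69%. Several of these peaks occupy the same bins and are not independent. The share over the 3 whole lists together was not computed, so nothing is read from that limit. The median score of member peaks was 0.00338 for even, 0.00383 for odd and 0.0035 for LacZ, while the whole lists had 0.00282, 0.00239 and 0.00406. The highest member scores were 0.0121 for even, in NOLC1, and 0.0153 for odd, in SURF6. The meaning of the score is not known from the sources.

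Annotated pseudogenes carry the names of 11 members, of which 6 had a peak, with up to 3 namesakes each. NPM1, with 50 such pseudogenes, and BMS1, with 21, were among the members without a peak. The treatment of reads that match several places is not stated in the sources, so recovery of these genes is uncertain.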
